A study of Mus musculus with 24 samples.

Results

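Ccl2, Ccl7 and Cxcl1 are the chemokine genes described here across interferon-treated NIH-3T3 cells, an established line of mouse embryonic fibroblasts. They were chosen by gene symbol, as 3 of the 18193 genes that the array annotation names. Every probe set assigned to one of them was taken, which gave 5 of the 45037 probe sets that are not controls. Ccl2 (1420380_at) and Ccl7 (1421228_at) have 1 probe set each. Cxcl1 has 3, and they are called here by their suffix: s_at (1457644_s_at, the brightest), plain at (1419209_at) and x_at (1441855_x_at). All 5 passed the filter on low signal, under which a probe set had to exceed log2 4 on at least 3 arrays.

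The study measured total cellular RNA on 24 Affymetrix arrays in 7 groups. At 1 h, cells were mock treated (4 arrays), given 100 U/ml IFN-alpha (4 arrays) or given 100 U/ml IFN-gamma (4 arrays), all with 200 µM 4-thiouridine (4sU, a modified nucleoside taken up into RNA as it is made) for the full 60 min. A further 3 arrays came from mock-treated cells at 1 h without 4sU. At 3 h, mock treatment, IFN-alpha and IFN-gamma had 3 arrays each, and 500 µM 4sU was present from 150 to 180 min. All cells received fresh, warmed medium at the start, and those called mock received no interferon. Values are log2 array signals, so a difference of 1 is a doubling. A gene that fewer cells express cannot be told apart from one with less RNA per cell.

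Ccl2 (monocyte chemoattractant protein 1) and Ccl7 (monocyte chemoattractant protein 3) are secreted C-C chemokines that draw monocytes through the receptor Ccr2. Cxcl1 is a C-X-C chemokine of the class that carries the ELR motif, and it draws neutrophils through Cxcr2. In fibroblasts all of these genes can be induced by serum, growth factors and inflammatory cytokines, with NF-kB as a central activator.

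Of the members, only Cxcl1 was matched in the RefSeq promoter table, which had no entry for Ccl2 or Ccl7. The 250 bases before the Cxcl1 start (GRCm38.p6, chr5:90890995-90891244, plus strand) are therefore the only ones shown. The capitals mark overlapping matches to the kappaB motif on both strands, at positions -71 to -61 from the start.
Cxcl1: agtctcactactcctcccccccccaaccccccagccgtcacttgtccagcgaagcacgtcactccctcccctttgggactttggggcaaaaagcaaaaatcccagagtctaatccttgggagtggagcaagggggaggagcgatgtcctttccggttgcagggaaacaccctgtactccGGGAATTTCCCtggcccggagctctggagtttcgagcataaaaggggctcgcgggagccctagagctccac
A kappaB match was present in 7.25% of the 32851 promoter windows of this length. On either strand the window held no match to the interferon response core of a pair of GAAA runs 2 bases apart (in 2.98% of windows), the AP-1 site TGANTCA (6.75%), the SP1 box GGGCGG (32.7%) or the CArG box (1.47%). A match is a run of letters in this window and was not measured as a bound site.

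The 10 fibroblast markers were above log2 4 on all 24 arrays, with an array mean of 11.6 to 12.4. Of the 7 monocyte and macrophage markers with a probe set 1, Cd14, exceeded log2 4 on any array, and the mean of the list was 3.00 to 3.28. Adgre1, Itgam and Csf1r were below log2 4 on every array, as were all 5 neutrophil, 4 lymphocyte and 4 endothelial markers. Of 4 epithelial markers 1, Epcam, exceeded it. On 5 arrays the 5′ end of the beta-actin transcript read low against its 3′ end, by 2.22 to 3.43 log2 units, against 0.78 to 1.37 on the other 19. These were the second replicates of all groups with 4sU at 1 h, and replicates 2 and 3 without 4sU. The median probe set's SD among replicates was 0.35 to 0.40 at 1 h and 0.12 to 0.13 at 3 h. The labels do not say that replicates came from separate cultures, so each p-value reflects only how these samples scattered, and that scatter may be technical.

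Ccl2 was high in mock cells at 1 h and lower at 3 h. Its log2 signals were 12.02, 10.18, 11.71 and 11.82 in mock cells at 1 h and 9.26, 9.22 and 9.28 in mock cells at 3 h. Every 3 h array was below every 1 h array, as in 13.1% of all probe sets, and the second 1 h replicate, which has low 5′ actin, stood well under the others. The mean fell by 2.18 ± 0.52 (SE), with an adjusted p of 0.00978 in limma, where 5.88% of all 19305 tested probe sets fell.

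Cxcl1 fell over the same interval. On its s_at probe set mock cells read 11.12, 11.47, 11.30 and 11.08 at 1 h and 8.92, 9.10 and 9.21 at 3 h. The groups were far apart against a spread of 0.18 (SD, n = 4) and 0.15 (SD, n = 3). The mean fell by 2.17 ± 0.15 (adjusted p = 1.08e-08 in limma), and the other Cxcl1 probe sets fell by 1.72 ± 0.36 (plain at, adjusted p = 0.00381) and 2.61 ± 0.27 (x_at, adjusted p = 1.84e-06). The s_at and x_at probe sets can also read related transcripts, and those of 1 gene share its RNA, so they are not separate evidence.

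Ccl7 was not called between the mock groups. It read 9.70, 6.47, 9.23 and 10.07 at 1 h and 7.33, 7.39 and 8.11 at 3 h. The groups overlapped only through the second 1 h replicate. The difference was -1.26 ± 0.88 (adjusted p = 0.352), and -2.06 without the 5 arrays of low 5′ actin (adjusted p = 0.000438, where 7.6% of probe sets fell). Time, 4sU dose and labelling window all differ between the mock groups and cannot be told apart.

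**Figure D1:**
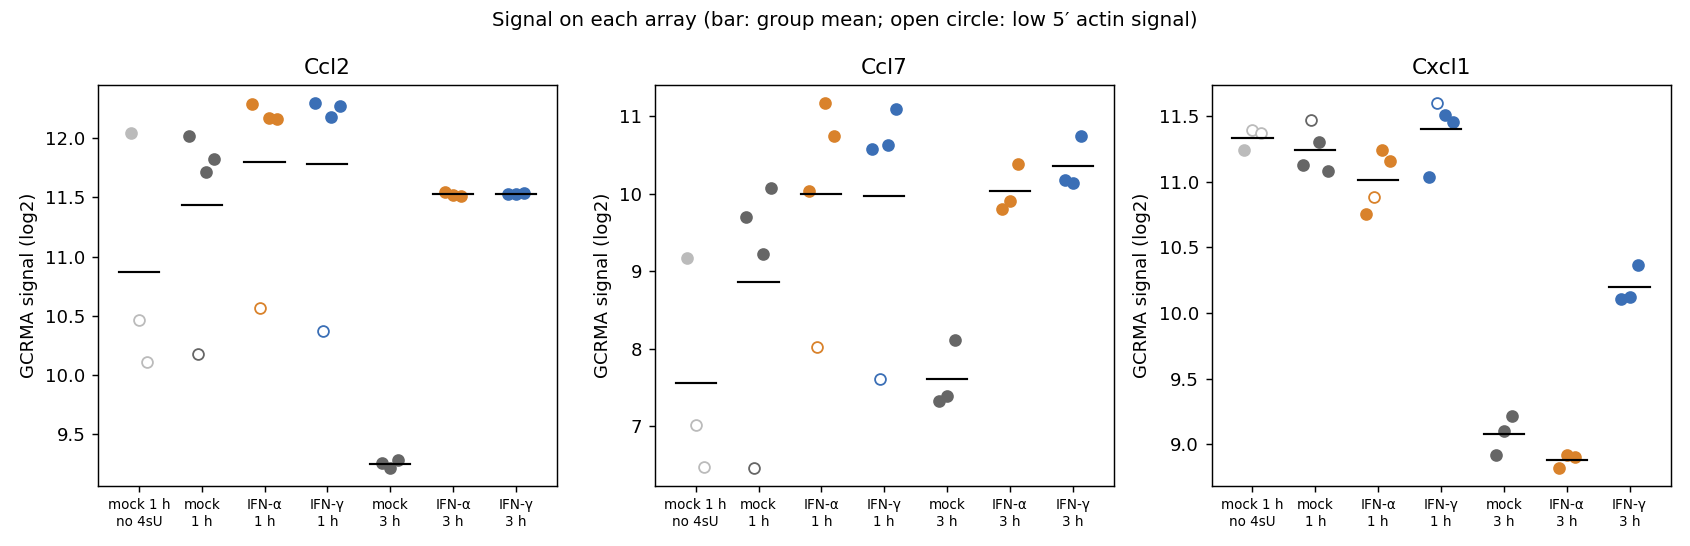
Log2 signal of Ccl2, Ccl7 and Cxcl1 (s_at probe set) on each of the 24 arrays, by group; points are arrays, bars are group means, and open circles are the 5 arrays with low 5′ beta-actin. Mock cells at 3 h lie at 9.22 to 9.28 for Ccl2, below the 11.51 to 11.55 of IFN-alpha at 3 h, and the open circles at 1 h lie low for Ccl2 and Ccl7 but not for Cxcl1.

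Many genes known to respond to fresh serum fell over the same interval. Of 31 measured immediate early genes, 19 fell in mock cells from 1 h to 3 h, none rose, and the median difference was -1.19 against 0.06 over all probe sets. Those with the largest falls were Egr3 (-3.60 ± 0.19), Hbegf (-3.14 ± 0.32), Egr2 (-2.63 ± 0.30) and Klf10 (-2.39 ± 0.19). Egr2 and Egr3 are zinc-finger transcription factors, Hbegf is a growth factor of the EGF family and Klf10 is a repressor induced by TGF-beta.

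Among 17 measured genes of the NF-kB pathway, 5 fell and none rose, with a median of -0.49. The largest falls were in its feedback inhibitors and co-regulators: Tnfaip3 (at least 5.95-fold lower, its 3 h mean being below log2 4), Nfkbiz (-1.88 ± 0.19) and Nfkbia (-1.51 ± 0.14), followed by the kinase Map3k8 (at least 1.47-fold lower, likewise). Of 7 listed factors that act on mRNA decay, the decay promoters Zc3h12a (-2.24 ± 0.22), Zfp36 (-1.93 ± 0.52) and Zfp36l1 (-1.48 ± 0.19) fell. Of 6 measured cytokine and recruitment genes 4 fell, namely Lif (-3.01 ± 0.16), Il6 (-2.09 ± 0.28), Csf3 (at least 1.35-fold lower, its 3 h mean being below log2 4) and Csf1 (-0.69 ± 0.21). Cxcl5 was the 1 measured gene among the 6 ELR chemokine genes next to Cxcl1, and it fell by 0.93 ± 0.19 (adjusted p = 0.00331). Of the 2 measured C-C chemokine genes listed beside Ccl2 and Ccl7 (Ccl8 and Ccl11), Ccl8 went the other way. It was called higher at 3 h, by 0.97, and Ccl11 was not called.

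At 3 h, Ccl2 was close to 5-fold higher with either interferon than in mock cells. Its log2 signals were 11.55, 11.52 and 11.51 with IFN-alpha and 11.53, 11.53 and 11.53 with IFN-gamma, against the mock values of 9.22 to 9.28. No interferon array came near a mock array. Ccl2 rose 4.84-fold with IFN-alpha (2.27 ± 0.55, adjusted p = 0.0372 in limma) and 4.85-fold with IFN-gamma (2.28 ± 0.55, adjusted p = 0.0303). Of all tested probe sets, 1.53% were called higher with IFN-alpha and 1.88% with IFN-gamma.

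These standard errors pool the spread of all groups, including the wider 1 h groups, and the calls lie near the threshold. Without any 1 of the compared arrays the adjusted p was 0.128 to 0.142 for IFN-alpha and 0.103 to 0.114 for IFN-gamma, and without the filter it was 0.116 and 0.0872. A fit that blocks on replicate number gave adjusted p = 4.57e-11 and 5.91e-11, at SE 0.079.

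Ccl7 was also higher on every interferon array at 3 h. It read 9.81, 9.91 and 10.39 with IFN-alpha and 10.18, 10.14 and 10.75 with IFN-gamma, against 7.33, 7.39 and 8.11 in mock cells. The third replicate was highest in each group, and no interferon array overlapped mock. Groups were set apart in this way, with every interferon array higher, in 6.21% of probe sets for IFN-alpha and 8.31% for IFN-gamma.

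For Ccl7 the differences were 2.42 ± 0.94 (5.37-fold) with IFN-alpha and 2.74 ± 0.94 (6.70-fold) with IFN-gamma. Neither passed in the fit over all groups (adjusted p = 0.768 and 0.303). Within replicate numbers Ccl7 was higher by 2.48, 2.52 and 2.27 with IFN-alpha and by 2.85, 2.75 and 2.63 with IFN-gamma. In the blocked fit both were called, at adjusted p = 3.02e-06 and 8.11e-07, where 2.76% and 3.86% of probe sets were called higher.

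Cxcl1 rose with IFN-gamma and was not called with IFN-alpha. Its s_at probe set read 10.10, 10.12 and 10.36 with IFN-gamma, 8.82, 8.92 and 8.90 with IFN-alpha, and 8.92, 9.10 and 9.21 in mock cells. The IFN-gamma arrays stood clear above both other groups, and the IFN-alpha arrays lay just under the lowest mock array, as in 13.4% of probe sets. The rise was 2.17-fold (1.12 ± 0.16, adjusted p = 0.000144), and the IFN-alpha difference was -0.20 ± 0.16 (adjusted p = 1.00).

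The other Cxcl1 probe sets gave similar sizes. With IFN-gamma the differences were 0.96 ± 0.38 (plain at, adjusted p = 0.591) and 1.04 ± 0.29 (x_at, adjusted p = 0.0814). On both, all 3 IFN-gamma arrays were above all mock arrays, and with the replicate block both were called (adjusted p = 0.00249 and 0.000204). With IFN-alpha they were -0.37 ± 0.38 and -0.24 ± 0.29, and neither was called with or without the block.

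**Figure D2:**
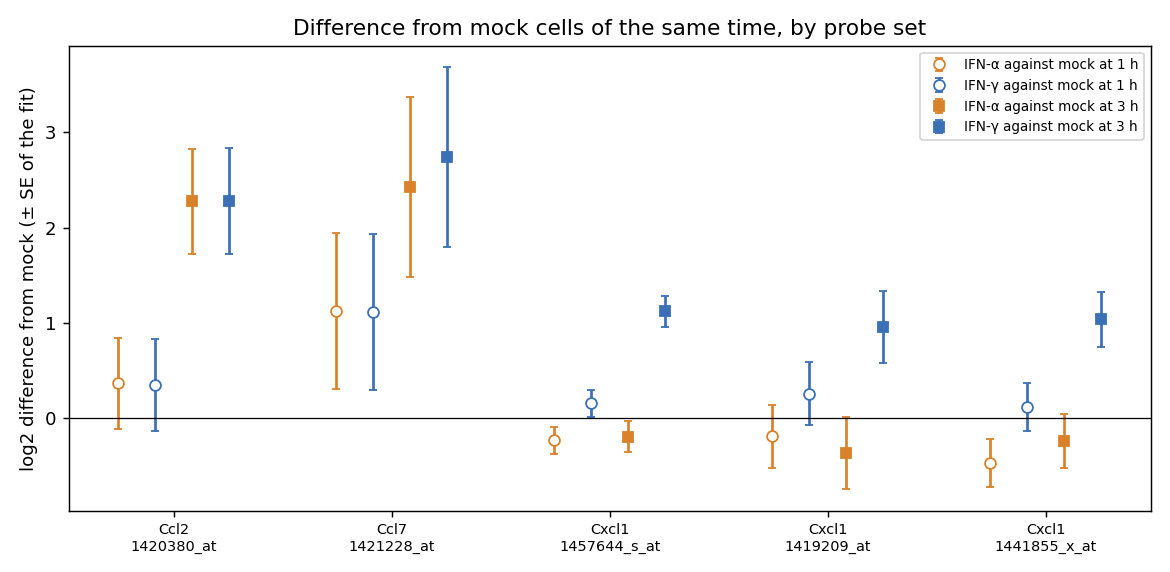
Log2 difference from mock for the 5 probe sets under each interferon and time; points are limma estimates and bars are ± 1 SE from the fit over all groups. At 3 h the Ccl2 points lie at 2.27 and 2.28 and the Ccl7 points at 2.42 and 2.74, while the Cxcl1 probe sets are below 0 with IFN-alpha and at 0.96 to 1.12 with IFN-gamma.

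At 1 h no member was called with either interferon in the fit over all groups, in which 0.259% of probe sets were called with IFN-alpha and 0.492% with IFN-gamma. None of the 5 probe sets had an unadjusted p under 0.05. Ccl2 read 12.29, 10.57, 12.17 and 12.17 with IFN-alpha, and 12.30, 10.37, 12.18 and 12.27 with IFN-gamma. Replicate 2 was lowest in each group, so the groups overlapped mock. Ccl2 differed from mock by 0.36 ± 0.48 with IFN-alpha and 0.35 ± 0.48 with IFN-gamma (adjusted p = 1.00 for both). The sign changed when the second replicate was left out of mock alone, with differences of -0.054 and -0.071. Without that of the interferon group alone they were 0.77 and 0.82. Without the arrays of low 5′ actin in all groups they were 0.36 and 0.40.

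Within replicate numbers Ccl2 was higher on every interferon array, with the same 4 mock arrays serving both interferons. The differences from mock were 0.27, 0.39, 0.46 and 0.34 with IFN-alpha and 0.28, 0.19, 0.47 and 0.45 with IFN-gamma. In the blocked fit Ccl2 rose at 1 h with both (adjusted p = 0.0231 and 0.0137, SE 0.069), where 0.622% and 1.32% of probe sets were called higher. Its size at 1 h, 1.29-fold and 1.27-fold, was well under that at 3 h.

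Ccl7 at 1 h read 10.03, 8.02, 11.17 and 10.74 with IFN-alpha and 10.58, 7.61, 10.63 and 11.09 with IFN-gamma. Replicate 2 was again lowest. The difference from mock was 1.13 ± 0.82 (2.18-fold) with IFN-alpha and 1.11 ± 0.82 (2.16-fold) with IFN-gamma, both at adjusted p = 1.00. Without mock replicate 2 the differences were 0.33 and 0.31, and without replicate 2 of the interferon group 1.78 and 1.90. By replicate number it was 0.33, 1.56, 1.95 and 0.67 with IFN-alpha and 0.87, 1.14, 1.41 and 1.02 with IFN-gamma. All of these were above 0, but both interferons were set against the same 4 mock arrays. The share of all probe sets higher in every pair was not computed. Blocking on the replicate number, Ccl7 rose with both (adjusted p = 0.00944 and 0.00482, SE 0.19).

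Without the 5 arrays of low 5′ actin, Ccl2 at 1 h lay between 11.71 and 12.02 in mock cells, between 12.17 and 12.29 with IFN-alpha and between 12.18 and 12.30 with IFN-gamma, with no overlap; 1.28% and 1.71% of probe sets were clear above mock in this way. Ccl7 then lay between 9.23 and 10.07 in mock cells, 10.03 and 11.17 with IFN-alpha, and 10.58 and 11.09 with IFN-gamma. Only IFN-gamma was clear of mock for Ccl7. In the fit without these arrays neither gene was called (Ccl2 adjusted p = 0.434 and 0.11).

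Cxcl1 at 1 h read 10.75, 10.88, 11.24 and 11.16 with IFN-alpha and 11.04, 11.60, 11.51 and 11.45 with IFN-gamma on its s_at probe set. Both groups overlapped the mock arrays. The differences were -0.23 ± 0.14 and 0.16 ± 0.14, and neither was called with or without the block (adjusted p = 0.438 and 0.574 with it).

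**Figure D3:**
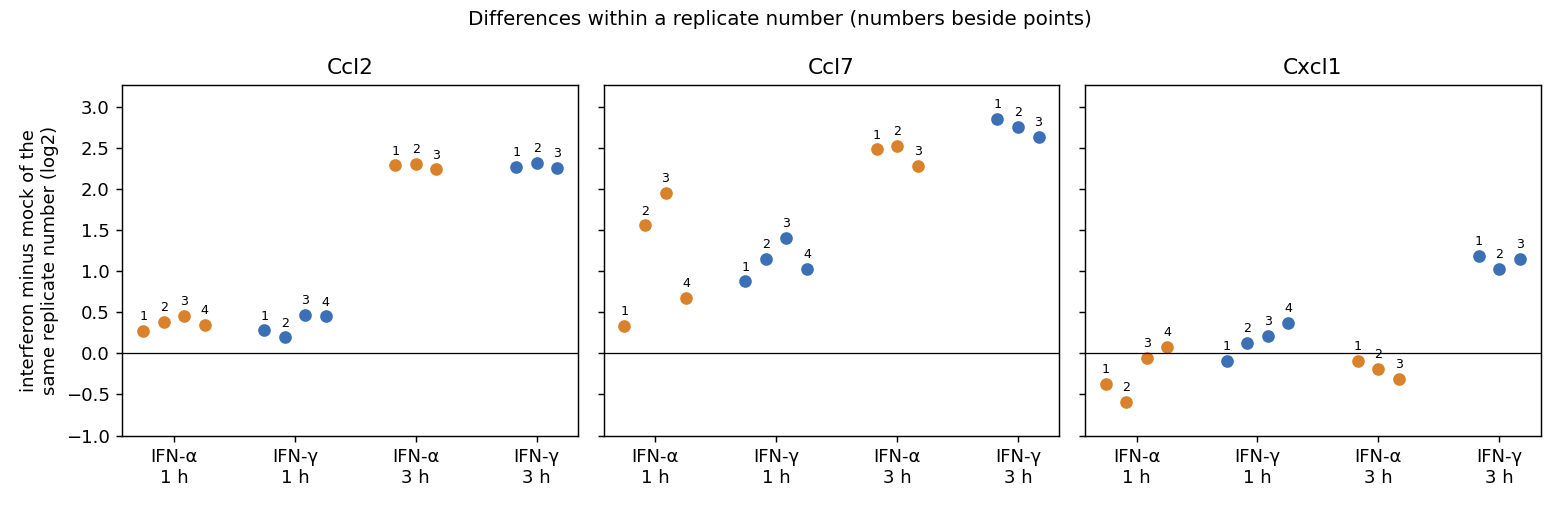
Log2 difference between each interferon-treated array and the mock array of the same replicate number, with the number printed at each point, for Ccl2, Ccl7 and Cxcl1 (s_at probe set) at 1 h and 3 h. All Ccl2 and Ccl7 points are above 0, the 3 h points of Ccl2 sit between 2.24 and 2.31, and the Cxcl1 points at 3 h lie at -0.31 to -0.09 with IFN-alpha and 1.02 to 1.19 with IFN-gamma.

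The growth of the responses from 1 h to 3 h was tested as a difference of differences. For Cxcl1 and IFN-gamma it was 0.96 ± 0.22 on s_at (adjusted p = 0.0320 in limma), where 0.787% of probe sets were called higher. The other Cxcl1 probe sets were not called, at 0.70 ± 0.51 (plain at) and 0.92 ± 0.38 (x_at). At 1 h the s_at call was lost if the second or the third mock array, or the first IFN-gamma array, was left out. At 3 h it was lost without the first or second mock array or any 1 IFN-gamma array, at adjusted p of up to 0.142. In the blocked fit s_at was called at adjusted p = 0.00188 (2.21% of probe sets higher). There x_at was also called (adjusted p = 0.0124), and plain at was not (adjusted p = 0.171).

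For Ccl2 the response grew by 1.91 ± 0.73 with IFN-alpha and 1.93 ± 0.73 with IFN-gamma, and for Ccl7 by 1.30 ± 1.25 and 1.63 ± 1.25. With 1 array left out the Ccl7 values ran from 0.64, without the second IFN-alpha array at 1 h, to 2.10, without the second mock array at 1 h. For IFN-gamma they ran from 0.84, without its second 1 h array, to 2.43, without that mock array. None of these was called in the fit over all groups (adjusted p of 0.789 to 1.00). For IFN-alpha 0.932% of probe sets were called higher, and 1.85% in the blocked fit. There all 4 were called, Ccl2 at adjusted p = 2.44e-08 and 3.33e-08 and Ccl7 at 0.0313 and 0.00472. The mock level of Ccl2 fell between these times. Mean Ccl2 was 11.43 ± 0.85 (SD, n = 4) in mock cells at 1 h and 11.53 ± 0.02 (SD, n = 3) with IFN-alpha at 3 h. Without the second mock replicate, which has low 5′ actin, the 1 h mean was 11.85 (11.71 to 12.02). That range is above the 11.51 to 11.55 with IFN-alpha at 3 h. Between these groups interferon, time, 4sU dose and labelling window all differ and cannot be told apart.

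Between the interferons, Cxcl1 was the member with a called difference. At 3 h it was 2.49-fold higher with IFN-gamma than with IFN-alpha on the s_at probe set (IFN-alpha minus IFN-gamma -1.32 ± 0.16, adjusted p = 2.3e-05), where 1.68% of probe sets were called. It was 2.42-fold higher on x_at (-1.27 ± 0.29, adjusted p = 0.0189), a call lost without any 1 IFN-alpha array or without the first or the third IFN-gamma array (adjusted p of up to 0.143). On the plain at probe set the difference was -1.32 ± 0.38 (adjusted p = 0.121). All 3 probe sets were called in the blocked fit, at adjusted p of up to 0.00014, where 2.5% of probe sets were called lower with IFN-alpha. By replicate number the s_at probe set differed by -1.28, -1.21 and -1.46.

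For Ccl2 the interferons differed at 3 h by -0.0038 ± 0.55 and for Ccl7 by -0.32 ± 0.94 (adjusted p = 1.00 for both). In the blocked fit the SE was 0.079 for Ccl2 and 0.22 for Ccl7, and neither was called. At 1 h the differences were 0.02 ± 0.48 for Ccl2, 0.01 ± 0.82 for Ccl7 and -0.39 ± 0.14 for Cxcl1 (adjusted p = 0.987), where 0.363% of probe sets were called. In the blocked fit the 1 h difference was called on x_at (-0.59 ± 0.12, adjusted p = 0.0221, with 1.08% of probe sets called lower) and not on s_at (adjusted p = 0.0697).

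The responses of the 3 genes were also set against each other, in 12 comparisons. For each, the log2 difference between a pair of genes was taken within every array, and treated arrays were set against mock arrays by a two-sided exact permutation test that did not use the replicate numbers. At 3 h with IFN-alpha, the response of Ccl2 exceeded that of Cxcl1 by 2.47 and that of Ccl7 exceeded it by 2.62. With IFN-gamma the gaps were 1.16 and 1.62. Each had p = 0.1 by the exact test (adjusted p = 0.3), the smallest that 3 values against 3 can give, so these comparisons could not pass. Ccl2 minus Ccl7 was -0.15 with IFN-alpha (exact permutation p = 0.5) and -0.46 with IFN-gamma (exact permutation p = 0.3), and without the third IFN-alpha array the former was 0.034. The 6 comparisons at 1 h had adjusted p of 0.45 to 0.686 by the exact permutation test.

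4sU itself was compared in mock cells at 1 h. Without it Ccl2 read 12.04, 10.46 and 10.11, Ccl7 read 9.17, 7.02 and 6.48, and Cxcl1 read 11.24, 11.39 and 11.37. The lower arrays of Ccl2 and Ccl7 were replicates 2 and 3, those with low 5′ actin. The differences with 4sU were 0.56 ± 0.52 for Ccl2 (adjusted p = 0.859), 1.31 ± 0.88 for Ccl7 (adjusted p = 0.830) and -0.09 ± 0.15 for Cxcl1 (adjusted p = 0.919). None was called, against 0.0311% of all probe sets. The part of the 5′ actin reading in these values was not tested.

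Ordered by group mean, Ccl2 rose from mock at 3 h through mock without 4sU, mock at 1 h, IFN-alpha at 3 h, IFN-gamma at 3 h and IFN-gamma at 1 h to IFN-alpha at 1 h. Only the first neighbours, mock at 3 h and mock without 4sU, did not overlap. Ccl7 ran from mock without 4sU through mock at 3 h, mock at 1 h, IFN-gamma at 1 h, IFN-alpha at 1 h and IFN-alpha at 3 h to IFN-gamma at 3 h, and every pair of neighbours overlapped. Cxcl1 ran from IFN-alpha at 3 h through mock at 3 h, IFN-gamma at 3 h, IFN-alpha at 1 h, mock at 1 h and mock without 4sU to IFN-gamma at 1 h. That is the order on s_at, where the first 3 steps did not overlap and the later ones did. On plain at and x_at the first step, from IFN-alpha to mock at 3 h, did overlap. Mock without 4sU came earlier in the order on those probe sets.

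Of the C-C chemokine genes that neighbour Ccl2 and Ccl7 in the annotation (Ccl1, Ccl8, Ccl11 and Ccl12), Ccl8 and Ccl11 passed the filter. Both rose with IFN-gamma at 3 h. Ccl11 (eotaxin, an eosinophil attractant) rose at least 3.31-fold (2.66 ± 0.15, adjusted p = 9.72e-11), the bound being taken from log2 4 because its mock mean was 3.07. Only the 3 IFN-gamma arrays at 3 h exceeded log2 4, so Ccl11 passed the filter through the group where it was high and its count is not independent of the filter. Ccl8 (monocyte chemoattractant protein 2) rose 2.40-fold (1.26 ± 0.29, adjusted p = 0.0167). With IFN-alpha at 3 h neither was called, and Ccl8 differed from mock by 0.70 ± 0.29. The mock and IFN-alpha arrays at 3 h were all below log2 4 for Ccl11, so its difference is left out. At 1 h the Ccl11 means of mock (3.07) and IFN-gamma (3.78) were both below log2 4, and no difference is given.

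The other chemokines were mostly dim. Of 14 other C-C, CX3C and C chemokines with a probe set, 4 passed the filter (Ccl5, Ccl9, Ccl25 and Cx3cl1), and none was called with interferon at either time in limma, or had an unadjusted p under 0.05. Of 7 other C-X-C chemokines, 3 passed. Cxcl10, which attracts activated T cells, rose at 3 h by 8.71 ± 0.40 with IFN-alpha and 7.51 ± 0.40 with IFN-gamma, and Cxcl9, which shares its receptor, rose at least 29.9-fold with IFN-gamma, its mock mean being below log2 4. Both were also called with IFN-gamma at 1 h (Cxcl10 4.51 ± 0.35, Cxcl9 at least 5.69-fold), and Cxcl10 with IFN-alpha at 1 h (5.43 ± 0.35). Cxcl12 was not called. The group mean of Cxcl9 exceeded log2 4 only with IFN-gamma (6.51 at 1 h and 8.90 at 3 h). Cxcl9 thus passed the filter through the groups where it was high, and its count is not independent of the filter.

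**Figure D4:**
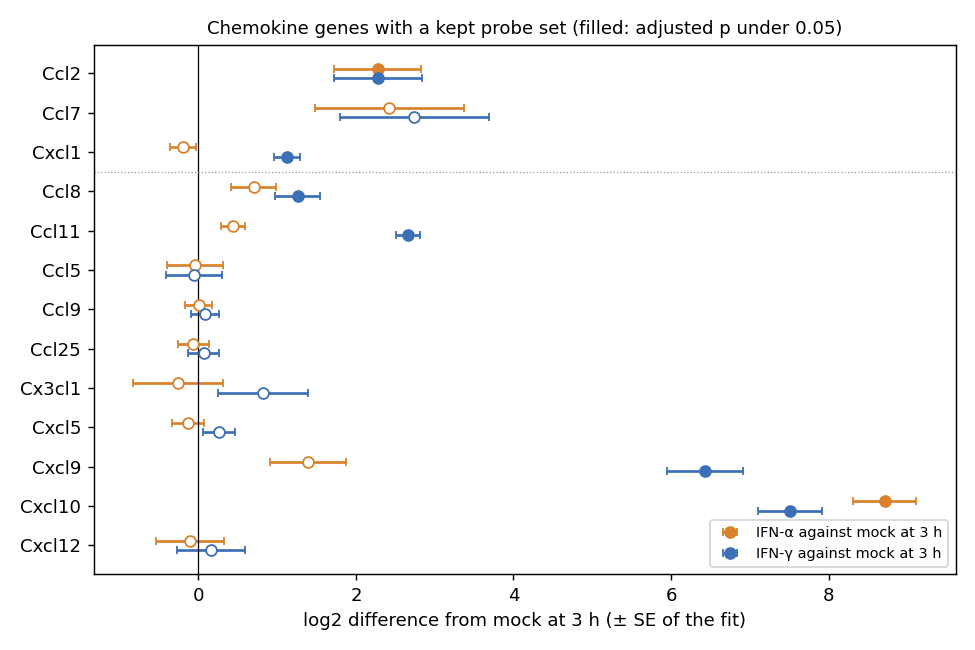
Log2 difference from mock at 3 h for the 13 chemokine genes whose probe set passed the filter, with IFN-alpha and IFN-gamma; bars are ± 1 SE and filled points passed adjusted p 0.05 in the fit over all groups. Cxcl10 is highest with both, at 8.71 and 7.51, Ccl2 is filled in both, and Cxcl1, Ccl8, Ccl11 and Cxcl9 are filled with IFN-gamma alone; the mock means of Ccl11 and Cxcl9 are below log2 4.

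Of 9 receptor and scavenger receptor genes, 7 had a probe set. Ccr1, Ccr2, Ccr3, Cxcr2, Ackr1 and Ackr2 were below log2 4 on all 24 arrays, and Ackr4, the 1 that passed the filter, was called in no interferon comparison. Of 6 measured cytokine and recruitment genes, Il6 rose with IFN-alpha (1.99 ± 0.26 at 1 h and 1.56 ± 0.30 at 3 h). With IFN-gamma Il6 rose at 1 h (1.70 ± 0.26), and Lif fell by 1.51 ± 0.15 at 1 h and 0.71 ± 0.17 at 3 h. Csf1, Csf3, Vcam1 and Mif were called at neither time.

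Among the 17 NF-kB genes, Map3k8 was higher with IFN-alpha at 1 h (1.12 ± 0.18) and 3 h (at least 1.45-fold, its 3 h mock mean being 3.59). With IFN-gamma Tnfaip2 (1.77 ± 0.26) and Map3k8 (2.11 ± 0.18) rose at 1 h, and Tnfaip2 (2.41 ± 0.30), Nfkbiz (0.98 ± 0.20) and Map3k8 (at least 1.42-fold) rose at 3 h. The other members of the list, with the subunits Rela, Relb, Rel and Nfkb2, were not called with interferon. The list's median difference at 3 h was 0.01 with IFN-alpha and 0.06 with IFN-gamma, against -0.06 and -0.05 over all probe sets.

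Of the 31 immediate early genes, none was called with IFN-alpha at either time or with IFN-gamma at 3 h, and Dusp1 fell by 1.58 ± 0.28 with IFN-gamma at 1 h. At an unadjusted p under 0.05 in limma the counts of 31 were 1 with IFN-alpha and 5 with IFN-gamma at 1 h, and 0 and 6 at 3 h. Over all probe sets the shares were 1.6% and 3.0% at 1 h, and 3.14% and 4.77% at 3 h. None of the 7 factors of mRNA decay was called with interferon, and 1 had an unadjusted p under 0.05, with IFN-gamma at 1 h.

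The genes whose 7 group means followed each member most closely differed between members. They were ranked by Pearson r among 4390 probe sets whose means spanned at least 1 log2 unit, with 1 probe set kept per gene. For Ccl2 they were Cyp1b1 (r = 0.93), Kat2b (0.87), Zfp945 (0.83), Ikzf2 (0.83) and Lifr (0.80), and Ccl7 came next at 0.79. For Ccl7 they were Irgm1 (0.91), Cxcl10 (0.89), Ifi204 (0.88), Irf9 (0.88) and Irgm2 (0.87). For Cxcl1 they were the stress-induced factor Atf3 (0.99), the Kit ligand Kitl (0.98), its neighbour Cxcl5 (0.98), the histone demethylase Kdm6b (0.98) and Cttnbp2nl (0.98). The points share the same 24 arrays, and the values are a description with n = 7 group means.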

How the data were processed

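The deposited values are GCRMA signals, per the submitters' processing notes, which give no version. Their log2 scale was read from the deposited values. Probe sets were named from the platform annotation, of which 34945 had 1 symbol, 932 several and 9160 none. A group-means model over all 7 groups was fitted with limma 3.58.1 in R 4.3.3 on 19305 probe sets above log2 4 on at least 3 arrays, with 17 residual degrees of freedom, two-sided tests and Benjamini-Hochberg adjusted p below 0.05 as the call. A gene in a list is its brightest probe set, and at most 4 called genes per list and comparison are named, those with the largest differences; the 5 nearest genes by r are named for each member. Same-numbered arrays deviated together within a time (r of 0.46 to 0.91 over 12 pairs at 1 h and 0.13 to 0.65 over 9 pairs at 3 h), so the replicate number was also fitted as a block. Scripts were tested on simulated data. Alternatives covered normalization, filter, samples fitted, array weights and arrays left out. Array numbers limit the precision. The genes and lists were chosen with earlier results of these data known. One further gene list is not reported here.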

Additional observations from a re-analysis of the deposited data

Results flagged for a closer look

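Groups at 1 h held arrays that stood apart for the monocyte chemokines. Replicate 2 was lowest for Ccl2 in mock cells (10.18, next 11.71), with IFN-alpha (10.57, next 12.17) and with IFN-gamma (10.37, next 12.18), with a gap of 0.833, 0.928 and 0.940 of the group's range. Replicate 2 was also lowest for Ccl7 with IFN-gamma (7.61, next 10.58), a gap of 0.851 of the range. Each is above the 95% critical value of Dixon for 4 samples, which chance passes in about 5% of groups. Of 15 combinations of probe set and 1 h group tested, 4 passed it. They are not independent, because all 4 lie on replicate 2, same-numbered arrays deviated together, and several probe sets read Cxcl1. The beta-actin 3′ minus 5′ difference on those arrays was 2.99 in mock cells, 3.09 with IFN-alpha and 3.43 with IFN-gamma, and its part in the values was not tested.

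On the s_at probe set the Cxcl1 response to IFN-gamma differed between times, being 0.96 larger at 3 h than at 1 h on the log2 scale in the test of that difference. In the same test plain at (0.70 ± 0.51) and x_at (0.92 ± 0.38) were not called.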

How the results depend on the processing

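No call of a chemokine member changed direction under any alternative run. With the replicate block the interferon differences kept their values and more of them passed. These were Ccl2 at 1 h (0.36 with IFN-alpha, 0.35 with IFN-gamma), Ccl7 at 1 h (1.13, 1.11) and 3 h (2.42, 2.74), and the growth from 1 h to 3 h of Ccl2 (1.91, 1.93) and Ccl7 (1.30, 1.63). It changed no other call of the brightest probe sets. Same-numbered mock arrays with and without 4sU deviated together unevenly (r of 0.80, 0.37 and 0.08 for replicates 1, 2 and 3). Those of different times did not (r of -0.23 to 0.13). In both comparisons the block left the members' calls as they were. It moved Ccl7's fall in mock cells from -1.26 to -0.92 and 4sU on Ccl2 from 0.56 to 0.42. It also moved 4sU on Ccl7 from 1.31 to 0.97 and on plain at from 0.28 to 0.054.

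Ccl7 at 3 h also passed with only the compared groups or only 3 h arrays (2.42, 2.74) and with array weights (2.44, 2.77). Array weights or leaving out the arrays of low 5′ actin made Ccl2's growth pass (1.94 and 1.92 with IFN-alpha, 1.90 and 1.88 with IFN-gamma) and Ccl7's fall in mock cells (-2.03 and -2.06). With array weights 4sU was called for Ccl2 (1.26) and Ccl7 (2.40), where 1 array without 4sU had weight 2.85 and the others 0.207 and 0.338. Ccl2 at 3 h did not pass without the filter (2.27, 2.28), and growth of Cxcl1 with IFN-gamma did not pass with only the compared groups (0.96) or quantile normalization (0.94). The cause was not tested.

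Uncalled differences that changed sign were IFN-alpha minus IFN-gamma for Ccl2 at 1 h (-0.0050 by quantile, -0.036 by weights, -0.042 without low 5′ actin) and 3 h (0.016 by quantile, 0.0033 by weights) and for Ccl7 at 1 h (-0.24 by weights, -0.12 without low 5′ actin). Others were Cxcl1's growth with IFN-alpha (-0.081) and 4sU on Ccl2 (-0.19), both without low 5′ actin, and 4sU on x_at (-0.15 by weights). For 4sU on Ccl2, leaving out the arrays of low 5′ actin kept only 1 array without 4sU.

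Leaving out 1 array gave, for IFN-alpha against mock at 1 h, -0.054 to 0.77 for Ccl2 and -0.39 to 0.16 for plain at, and 0.33 to 1.78 for Ccl7. For IFN-gamma it gave -0.071 to 0.82 for Ccl2, -0.0035 to 0.49 for plain at, -0.052 to 0.33 for x_at and 0.31 to 1.90 for Ccl7. At 3 h Ccl2 was 2.26 to 2.29 with either. IFN-alpha minus IFN-gamma ran from -0.45 to 0.43 for Ccl2 and -0.77 to 0.67 for Ccl7 at 1 h, and from -0.013 to 0.0025 for Ccl2 at 3 h. Growth of Cxcl1 ran from -0.048 to 0.11 with IFN-alpha (plain at -0.52 to 0.023) and 0.84 to 1.03 with IFN-gamma. 4sU on x_at ran from -0.023 to 0.35, on Ccl2 from 0.18 to 1.15 and on Ccl7 from 0.77 to 2.12. Ccl2 minus Cxcl1 ran from -0.30 to 0.73 with IFN-gamma at 1 h, and Ccl2 minus Ccl7 from -0.39 to 0.034 with IFN-alpha at 3 h.

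Counts of calls over all probe sets moved more, with 300 for IFN-alpha at 3 h (250 to 1615) and 385 for IFN-gamma (297 to 2032). At 1 h they were 50 (14 to 135) and 95 (28 to 428), and between the interferons 70 (10 to 401) at 1 h and 325 (234 to 1977) at 3 h. For growth they were 184 (161 to 389) and 160 (127 to 527), for 4sU 6 (0 to 3888) and for mock times 2188 (822 to 5573). Signal near log2 4 limits dim chemokines such as Ccl11.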
